A study of Mus musculus with 6 samples.

Results

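The genes described here are 45 genes of T cells and natural killer (NK) cells, measured by RNA-seq in whole mouse uterus. They were chosen by name, with earlier results of these data known, from the T cell receptor complex and its coreceptors, the costimulatory and signalling proteins of T cells, the receptors of NK cells, the granzymes, the T-box factors and lymphotoxin. All 45 were present among the 23420 genes counted. The mice were C57BL/6J females of 8 weeks, mated with vasectomized males, and their uteri were taken at pseudopregnancy day (PPD) 4.5. The mice were kept on standard chow, which the paper specifies as an irradiated diet free of soy protein. Controls were *Foxo1f/f*, with floxed *Foxo1* alleles and no Cre, and *Foxo1d/d* mice were PgrCre/+ *Foxo1f/f*. Each genotype had 3 libraries, and each library was a pool of RNA from 2 females. The Cre sits in a *Pgr* allele, so it deletes *Foxo1* wherever *Pgr* is active, from birth in the uterus, and also in the pituitary and in preovulatory granulosa cells. By the authors' account, the uterine loss covered epithelium and stroma, and FOXO1 staining remained in the blood vessels. The floxed allele loses a major coding exon and not the whole gene, and the controls keep both *Pgr* alleles intact.

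Every value below is the authors' mean count over the libraries of a genotype, and counts of single libraries were not analysed here. The authors' own comparison columns were not used, so there is no replicate check on any difference here, no spread between pools and no p-value. The mean counts summed over all genes came to 26125014 in *Foxo1f/f* and 27257963 in *Foxo1d/d*. Where a pair of counts is given below, *Foxo1f/f* comes before *Foxo1d/d*. A fold is the mean count in *Foxo1d/d* over that in *Foxo1f/f*, each divided by its genotype's total. The interval after it is a 95% Wilson interval from the counts summed over libraries, and it covers counting error only, not differences between pools of mice. *Foxo1* itself served as a check of the labels. It averaged 3941 counts in controls and 1456 in *Foxo1d/d*, a fold of 0.354 (0.342 to 0.367).

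T cells recognise antigen through a receptor that signals by way of the CD3 chains and the zeta chain, with CD4 or CD8 as coreceptor. NK cells carry no such receptor and respond through the balance of activating and inhibitory receptors, and both cell types kill by releasing perforin and granzymes. Uterine NK cells gather in the endometrium around implantation and multiply as the stroma decidualizes, where they are known for their part in the remodelling of maternal arteries.

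Genes of the CD3 chains and the CD4 and CD8 coreceptors were higher in *Foxo1d/d* uteri, and 3 granzyme genes were lower. Of the 45 members, 43 averaged 10 or more counts across the genotypes. Of these 43, 17 were at least 1.5-fold higher in *Foxo1d/d*, a rule that 5.43% of all 15696 genes at that depth met, and 3 were at least 1.5-fold lower, against 3.51% of all genes. The 17 were *Cd3d*, *Cd3e*, *Cd3g*, *Cd4*, *Cd8a*, *Cd8b1*, *Cd2*, *Cd5*, *Cd6*, *Cd28*, *Ctla4*, *Icos*, *Lat*, *Ubash3a*, *Tbx21*, *Gzma* and *Ltb*, and the 3 were *Gzmd*, *Gzmf* and *Gzmg*. The median log2 ratio, computed with a pseudocount of 1, was 0.45 over the 43 members and 0.02 over all genes of that depth. In 37 of the 43 members the ratio was above 0, as in 55.1% of all genes of that depth. The counting interval lay above 1 for 34 members, against 36.7% of all genes, and below 1 for 5, against 27.3%. These are RNA values of a whole organ, so more cells of a type and more RNA per cell cannot be told apart.

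Members with few counts held much of the list's range. Among all 8593 genes averaging 10 to under 1000 counts, 8.48% were at least 1.5-fold higher and 5.24% at least 1.5-fold lower, while of the 41 members in that range 17 were higher and 3 lower. The 17 members averaging 10 to under 100 counts included 10 of the higher and all 3 of the lower ones, against 16.1% higher and 9.98% lower among all genes of that depth, and their median log2 ratio was 0.79. The 26 members averaging 100 or more counts included 7 of the higher and none of the lower ones, against 3.17% higher and 2.14% lower among all genes of that depth, with a median of 0.40.

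**Figure D1:**
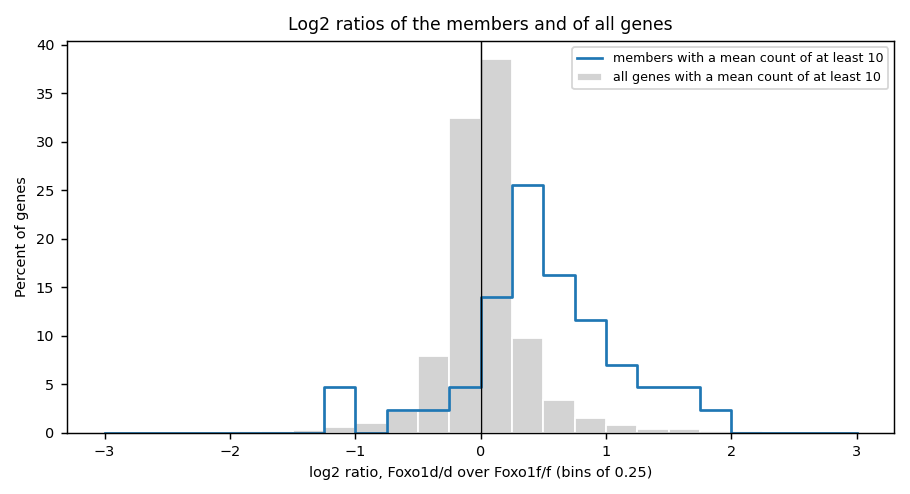
Distribution of log2 ratios of *Foxo1d/d* over *Foxo1f/f* in bins of 0.25 (x axis), as percent of genes (y axis), for the 15696 genes averaging 10 or more counts (grey bars, drawn from -3 to 3) and the 43 members at that depth (blue line). The members' median is 0.45 and that of all genes is 0.02.

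Genes common to leukocytes were also higher in *Foxo1d/d*. All 17 genes of a pan-leukocyte list had a fold above 1, and their summed mean counts were 17710 and 24742, a fold of 1.34 (1.32 to 1.35). *Lcp1*, an actin-bundling protein, held the most counts of that list, and *Ptprc*, the CD45 antigen, had a fold of 1.32 (1.28 to 1.36). At least 1.5-fold higher were *Dock2* (2.21), *Cytip* (1.63), *Ikzf1* (1.55) and *Cd37* (1.55). The part of this shift in the members' values was not tested, and T and NK cells express most of these genes themselves. The summed mean counts of the 45 members were 15001 and 19884, a fold of 1.27 (1.255 to 1.29), which is 0.949 (0.937 to 0.960) when scaled to the pan-leukocyte sum instead of the total. *Thy1* supplied 35.9% of that sum in *Foxo1f/f*.

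Scaled to the pan-leukocyte sum, which lowers every log2 ratio by 0.42, the median of the members was 0.03. On that scale 8 members were at least 1.5-fold higher, namely *Cd3d*, *Cd3e*, *Cd8a*, *Cd8b1*, *Cd5*, *Cd6*, *Ctla4* and *Icos*, against 1.98% of all genes, and 5 were at least 1.5-fold lower, against 19% of all genes, namely *Gzmd*, *Gzme*, *Gzmf*, *Gzmg* and *Klrg1*. Lower members were thus a smaller share than lower genes overall on that scale. This scale was chosen after the data were seen. Intervals on it take the pan-leukocyte sum as fixed and leave out that sum's own counting error, so they are somewhat too narrow.

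**Figure D2:**
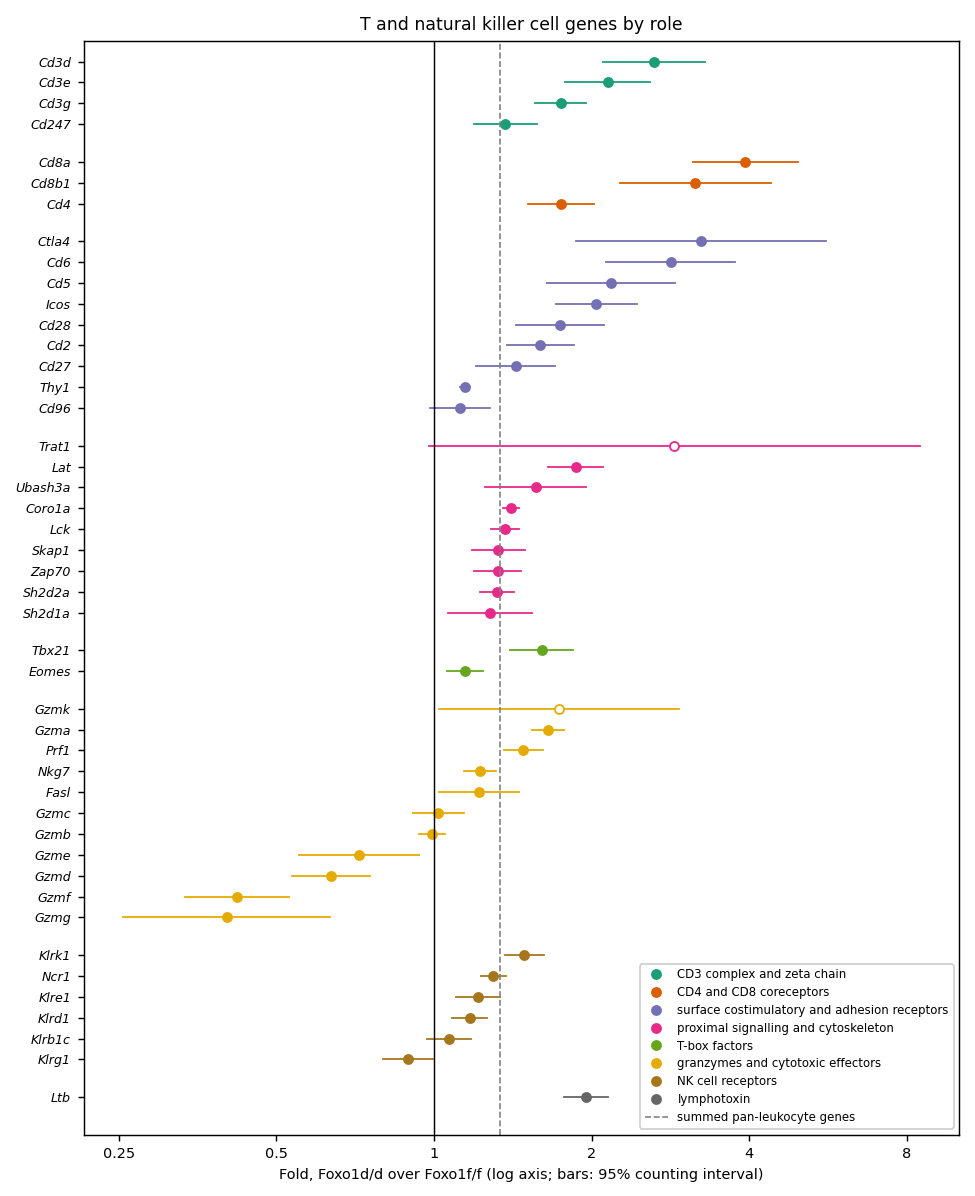
Fold of each of the 45 members, *Foxo1d/d* over *Foxo1f/f* (log x axis), by role, with 95% counting intervals as bars, and open circles for the 2 members with a mean count under 10. The dashed line marks the summed pan-leukocyte genes at 1.34. *Cd8a* has the highest fold at 3.93 and *Gzmg* the lowest at 0.402.

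The chains of the CD3 complex, which carry the signal of the T cell receptor into the cell, were higher in *Foxo1d/d*. *Cd3d* averaged 35 counts in controls and 96 in *Foxo1d/d*, a fold of 2.63 (2.10 to 3.29). *Cd3e* averaged 52 and 116, a fold of 2.14 (1.78 to 2.59). *Cd3g* averaged 156 and 283, a fold of 1.74 (1.56 to 1.95). The 3 genes are neighbours on chromosome 9, and their folds were ordered inversely to their counts. *Cd247*, the zeta chain that NK cell receptors use as well, averaged 111 and 158, a fold of 1.37 (1.19 to 1.57), and its span overlaps that of *Pou2f1*. Summed over the 4 genes the fold was 1.77 (1.65 to 1.91), and 1.32 (1.23 to 1.43) relative to the pan-leukocyte sum.

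The coreceptors differed most between genotypes among the roles. *Cd8a* and *Cd8b1* encode the alpha and beta chains of CD8, which binds MHC class I, and *Cd4* encodes the coreceptor for MHC class II, also found on some myeloid cells. *Cd8a* averaged 30.0 counts in controls and 123 in *Foxo1d/d*, a fold of 3.93 (3.12 to 4.95). *Cd8b1* averaged 15 and 49.3, a fold of 3.15 (2.26 to 4.39). *Cd4* averaged 93.3 and 170.0, a fold of 1.75 (1.51 to 2.02). Per count of *Cd4*, there were 0.321 counts of *Cd8a* in controls and 0.724 in *Foxo1d/d*, a ratio of ratios of 2.25 (1.71 to 2.96). The summed coreceptors had a fold of 2.37 (2.12 to 2.66), and 1.77 (1.58 to 1.99) relative to the pan-leukocyte sum. Without *Cd4*, which holds 67.5% of their counts in *Foxo1f/f*, the fold was 3.67.

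Among 9 surface receptors of costimulation and adhesion, 6 were at least 1.5-fold higher and none lower, against 5.43% and 3.51% of all genes. All of the 6 but *Cd2* averaged under 100 counts, where 16.1% of all genes were higher. *Ctla4*, an inhibitory receptor that competes with CD28 for its ligands, had the fewest counts of these, averaging 5.33 and 18, a fold of 3.23 (1.86 to 5.61). *Icos*, an inducible costimulator, averaged 59 and 126, a fold of 2.04 (1.71 to 2.44). *Cd28*, the main costimulatory receptor of naive T cells, averaged 54 and 98, a fold of 1.74 (1.44 to 2.11). These 3 genes lie near each other on chromosome 1. The scavenger receptor family members *Cd6*, averaging 21.3 and 63, and *Cd5*, averaging 23.3 and 53, had folds of 2.83 (2.13 to 3.75) and 2.18 (1.64 to 2.88). *Cd2*, an adhesion receptor of T and NK cells, averaged 94.3 and 157, a fold of 1.60 (1.38 to 1.85).

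The other members of that group lay closer to 1. *Cd27*, a tumour necrosis factor receptor family member whose span overlaps *E130112N10Rik*, averaged 69.7 and 104 (fold 1.43, 1.20 to 1.70). *Cd96*, a nectin-binding receptor of NK and T cells, averaged 137 and 160.0 (fold 1.12, 0.984 to 1.28), and its interval holds 1. *Thy1*, a T cell surface glycoprotein that fibroblasts and other stromal cells also carry, averaged 5383 and 6427 (fold 1.14, 1.12 to 1.17). *Thy1* holds 92.1% of the counts of these 9 genes in *Foxo1f/f*. The summed fold was 1.18 (1.16 to 1.20) with it, 1.61 (1.51 to 1.72) without it, and 0.882 with it relative to the pan-leukocyte sum.

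Proximal signalling genes with enough counts had folds from 1.28 to 1.86. *Lat*, the membrane adaptor that ZAP-70 phosphorylates, averaged 133 and 258 counts, a fold of 1.86 (1.65 to 2.10). *Ubash3a*, a phosphatase-like suppressor of T cell receptor signalling whose span overlaps *Rsph1*, averaged 41.7 and 68, a fold of 1.56 (1.253 to 1.95). *Lck*, the kinase bound to CD4 and CD8, averaged 613 and 873, a fold of 1.37 (1.29 to 1.45). *Zap70*, the kinase recruited to the zeta chain, averaged 213 and 294, a fold of 1.32 (1.19 to 1.46). The adaptors *Skap1*, *Sh2d2a* and *Sh2d1a* and the actin regulator *Coro1a* had folds between 1.28 and 1.40, all with intervals above 1. *Trat1*, a T cell receptor-associated adaptor, had mean counts of 1.33 and 4, too few to show a difference (fold 2.88, 0.978 to 8.45). The summed fold of the 9 genes was 1.39 (1.36 to 1.43), and 1.04 (1.02 to 1.07) relative to the pan-leukocyte sum.

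The T-box factors, which direct the effector programmes of T and NK cells, differed from each other. *Tbx21*, which encodes T-bet, averaged 108 and 181 counts, a fold of 1.60 (1.40 to 1.84). *Eomes* averaged 378 and 452, a fold of 1.14 (1.06 to 1.24). Their summed fold of 1.247 (1.16 to 1.33) was 0.931 relative to the pan-leukocyte sum. *Ltb*, which encodes the lymphotoxin beta chain made by lymphocytes, averaged 201 and 408, a fold of 1.95 (1.77 to 2.15), and 1.46 relative to the pan-leukocyte sum.

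None of the 6 NK cell receptor genes was at least 1.5-fold higher or lower, and with 5.43% of all genes higher and 3.51% lower, so few genes show little by that count. *Ncr1*, the activating receptor NKp46, averaged 715 and 968 counts, a fold of 1.30 (1.23 to 1.37). *Klrk1*, which encodes NKG2D, averaged 288 and 448, a fold of 1.49 (1.37 to 1.62), just under the 1.5-fold mark. *Klrd1*, which encodes the CD94 chain, had a fold of 1.17 (1.08 to 1.26), and *Klre1*, a lectin-like receptor, 1.22 (1.10 to 1.34). The folds nearest to or under 1 were those of *Klrb1c*, a C-type lectin receptor, at 1.07 (0.969 to 1.18), and *Klrg1*, an inhibitory receptor of mature NK and effector T cells, at 0.892 (0.799 to 0.996). Of the 90-base windows in *Klrb1c* transcripts, 11.5% also occur in *Gm44511* or *Klrb1a*, so its count depends on how such reads were assigned. It was the member with the largest share of such windows. The summed fold of the 6 genes was 1.22 (1.18 to 1.26), and 0.912 relative to the pan-leukocyte sum.

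T cell and NK cell receptor genes can be set against each other within a genotype, in pairs chosen after the values were seen. Per count of *Ncr1*, there were 0.0490 counts of *Cd3d* in controls and 0.0992 in *Foxo1d/d*, a ratio of ratios of 2.03 (1.61 to 2.55). Against *Ptprc*, the ratio of ratios was 1.63 (1.34 to 1.97) for *Cd3e*, 2.98 (2.36 to 3.76) for *Cd8a* and 0.985 (0.925 to 1.05) for *Ncr1*. Relative to the CD45 gene, *Cd3e* and *Cd8a* were thus higher in *Foxo1d/d*, while the interval of *Ncr1* holds 1. This did not extend to all T cell genes, since relative to the pan-leukocyte sum the intervals of *Cd247*, *Lck*, *Zap70* and *Cd27* hold 1 and *Cd96* and *Thy1* were lower, at 0.838 and 0.855. Nor does *Ncr1* stand for all NK cell receptor genes, since on that scale *Klrk1* was higher at 1.11 (1.02 to 1.21) and *Klrd1*, *Klrb1c* and *Klrg1* were lower, at 0.873, 0.798 and 0.666.

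Levels of different genes were compared per length, in CPM per kb of exon, where CPM are counts scaled to the genotype's total. In *Foxo1f/f* the highest levels were those of *Thy1* (68.8), *Coro1a* (24.3), *Gzmb* (20.5), *Nkg7* (19.1), *Ncr1* (17.8) and *Gzma* (15.7). In the same mice *Cd3g* had a level of 1.82, *Cd3d* 0.738, *Cd3e* 0.488 and *Cd8a* 0.316. These granzyme, *Nkg7* and *Ncr1* levels thus stood above those of the CD3 and CD8 genes named. In *Foxo1d/d* the order at the top was *Thy1* (78.7), *Coro1a* (34.0), *Gzma* (26.0), *Nkg7* (23.3), *Ncr1* (23.1) and *Gzmb* (20.3), and *Cd8a* stood at 1.24.

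**Figure D3:**
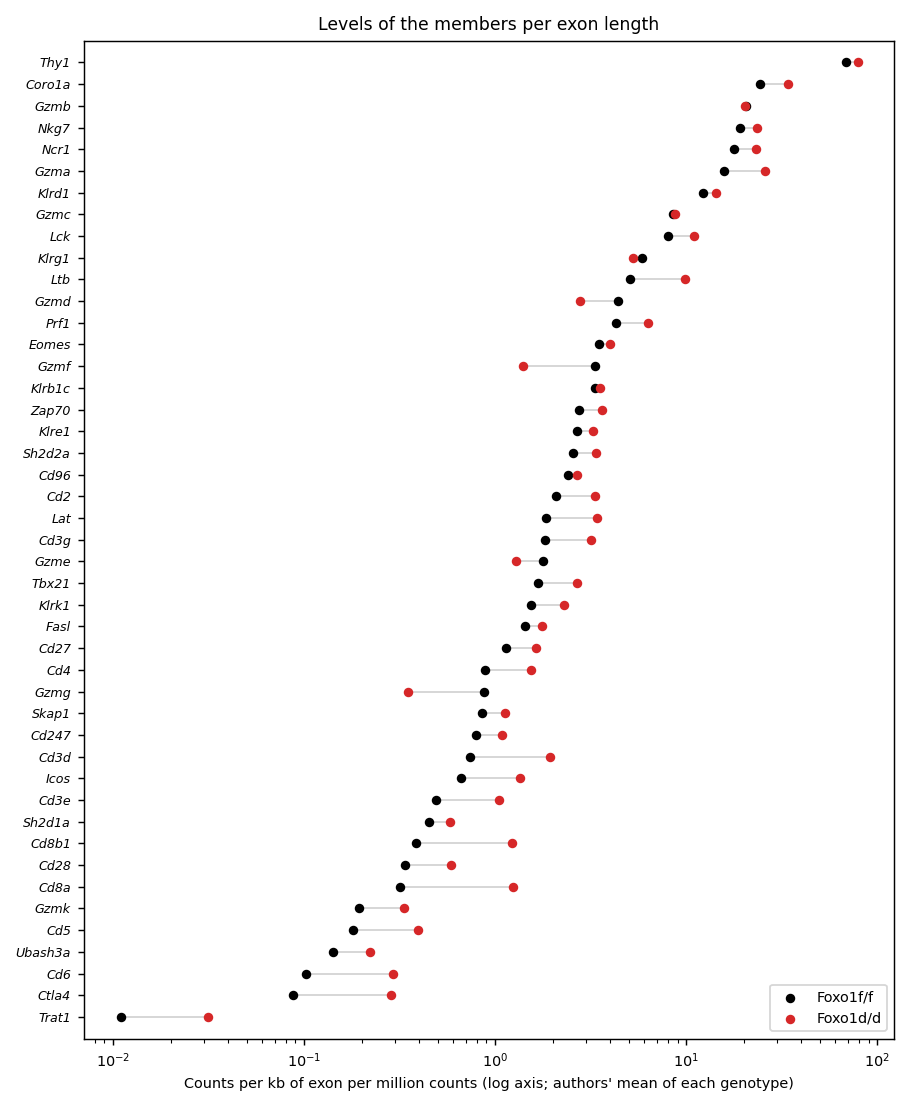
Level of each member in CPM per kb of exon (log x axis), as the authors' mean of *Foxo1f/f* (black) and *Foxo1d/d* (red), ordered by the level in *Foxo1f/f*. *Gzma* moves from rank 6 to rank 3 among the members and *Gzmf* from rank 15 to rank 29.

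The cytotoxic effectors differed in both directions. *Gzma*, a tryptase stored in cytotoxic granules, averaged 413 and 712 counts, a fold of 1.65 (1.54 to 1.77). *Prf1*, the pore-forming perforin, averaged 288 and 445, a fold of 1.48 (1.36 to 1.61). *Nkg7*, a granule membrane protein, had a fold of 1.22 (1.14 to 1.31) and *Fasl*, the death receptor ligand, 1.22 (1.02 to 1.45). *Gzmk*, another tryptase, had mean counts of 7 and 12.7 and stayed under the minimum count. *Gzmb*, which cleaves after aspartate and starts apoptosis in target cells, averaged 767 and 793, a fold of 0.990 (0.935 to 1.05). *Gzmc* averaged 200 and 212, a fold of 1.02 (0.912 to 1.14). For both genes the interval holds 1. The summed fold of the 11 genes was 1.17 (1.13 to 1.21) in total counts and 0.873 relative to the pan-leukocyte sum.

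*Gzmd*, *Gzme*, *Gzmf* and *Gzmg* encode closely related granzymes of the mouse, and all 4 had folds below 1 on each of the scales used, with *Gzme* short of the 1.5-fold mark when scaled to the total. *Gzmf* averaged 79.7 and 35.0 counts, a fold of 0.421 (0.335 to 0.529). *Gzmg* averaged 20.7 and 8.67, a fold of 0.402 (0.255 to 0.633). *Gzmd* averaged 110.0 and 73, a fold of 0.636 (0.536 to 0.754), and *Gzme* averaged 42.7 and 32, a fold of 0.719 (0.552 to 0.936). Their summed mean counts were 253 and 149, a fold of 0.563 (0.501 to 0.633), and 0.421 (0.374 to 0.473) relative to the pan-leukocyte sum. Per count of *Gzmb*, there were 0.104 counts of *Gzmf* in controls and 0.0441 in *Foxo1d/d*.

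These genes share a cluster on chromosome 14 with *Gzmb*, *Gzmc* and proteases of mast cells. In the RefSeq order the cluster runs *Cma1*, *Cma2*, *Mcpt1*, *Mcpt2*, *Mcpt9*, *Mcpt4*, *Mcpt8*, *Ctsg*, *Gzme*, *Gzmd*, *Gzmg*, *Gzmn*, *Gzmf*, *Gzmc* and *Gzmb*. Of its 15 genes, 8 averaged 10 or more counts. The mast cell chymases *Cma1* and *Mcpt4* had folds of 0.748 (0.672 to 0.832) and 0.737 (0.663 to 0.819). *Gzmd*, *Gzmg* and *Gzmf*, the 3 at least 1.5-fold lower, thus lie together with *Gzmn* among them, which had mean counts of 0 and 1. *Gzme*, at their side, had a fold close to those of *Cma1* and *Mcpt4*. For *Gzmc* and *Gzmb*, next to them, the interval holds 1 when scaled to the total, but relative to the pan-leukocyte sum their folds were 0.761 (0.681 to 0.851) and 0.740 (0.699 to 0.783). The cluster was looked at after the members' values were seen.

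**Figure D4:**
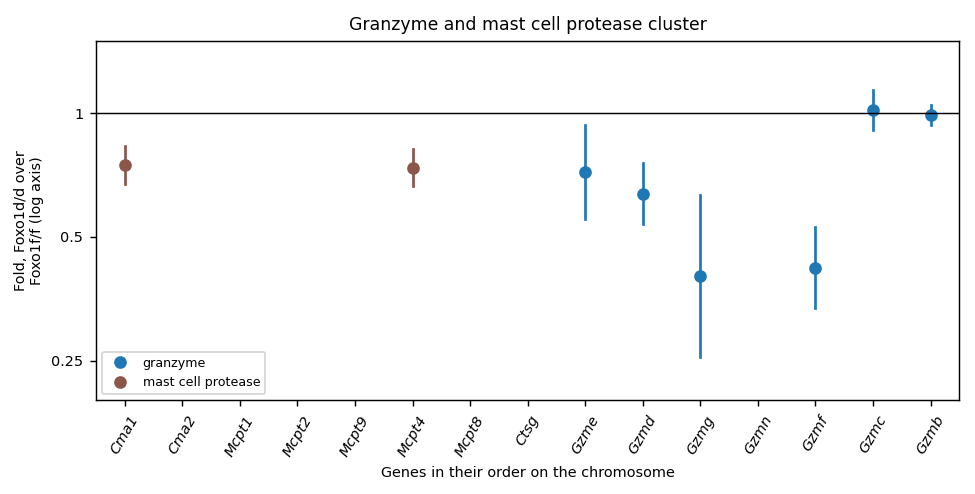
Fold of the genes in the granzyme and mast cell protease cluster, *Foxo1d/d* over *Foxo1f/f* (log y axis), in their order on the chromosome (x axis, not to scale), with 95% counting intervals. The 7 genes with a mean count under 10 carry no point. *Gzme*, *Gzmd*, *Gzmg* and *Gzmf* lie between 0.402 and 0.719.

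The likeness of these genes limits their separate counts. Aligned end to end, the transcripts of *Gzmd* and *Gzme* were 90.04% identical and those of *Gzmd* and *Gzmf* 83.3%. Those of *Gzmb* and *Gzmc* shared 47.8%, a value that their unlike lengths of 1436 and 894 bases lower. *Gzmd*, *Gzme* and *Gzmf*, at 964, 916 and 919 bases, are closer in length, so the 47.8% cannot be set against their values. Of the 90-base windows of *Gzmd*, 2.17% occur exactly in another gene's transcripts, and 0.967% of those of *Gzme* and 1.59% of those of *Gzmg* do, while *Gzmf* had none. How reads with mismatches were assigned among these genes was not tested.

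The sequences upstream of these genes are shown because *Gzmb* and *Gzmc* had folds nearer to 1 than the other 4 when scaled to the total, a contrast that on the pan-leukocyte scale is one of size, with all 6 below 1. They are the 150 bases before the RefSeq start on the minus strand of GRCm38.p6, at chr14:56262335-56262484 for *Gzmb*, chr14:56234658-56234807 for *Gzmc*, chr14:56132594-56132743 for *Gzmd*, chr14:56120626-56120775 for *Gzme*, chr14:56211408-56211557 for *Gzmf* and chr14:56159580-56159729 for *Gzmg*. Capitals mark the RUNX motif TGTGGT and the AP-1 motif TGANTCA on either strand.
Gzmb: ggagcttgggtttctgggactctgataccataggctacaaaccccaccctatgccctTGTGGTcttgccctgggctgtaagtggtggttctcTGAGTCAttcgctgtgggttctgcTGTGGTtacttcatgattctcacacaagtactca
Gzmc: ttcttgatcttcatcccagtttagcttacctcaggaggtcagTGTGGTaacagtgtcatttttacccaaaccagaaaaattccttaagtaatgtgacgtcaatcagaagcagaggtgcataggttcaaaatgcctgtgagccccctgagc
Gzmd: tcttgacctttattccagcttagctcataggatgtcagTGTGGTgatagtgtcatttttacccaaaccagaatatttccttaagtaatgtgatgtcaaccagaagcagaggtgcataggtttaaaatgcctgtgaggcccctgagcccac
Gzme: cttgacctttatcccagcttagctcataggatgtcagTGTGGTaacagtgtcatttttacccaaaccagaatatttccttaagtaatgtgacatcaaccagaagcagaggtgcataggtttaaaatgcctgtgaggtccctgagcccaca
Gzmf: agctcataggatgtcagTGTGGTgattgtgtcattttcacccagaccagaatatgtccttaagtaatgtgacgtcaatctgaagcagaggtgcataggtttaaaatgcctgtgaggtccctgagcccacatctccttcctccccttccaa
Gzmg: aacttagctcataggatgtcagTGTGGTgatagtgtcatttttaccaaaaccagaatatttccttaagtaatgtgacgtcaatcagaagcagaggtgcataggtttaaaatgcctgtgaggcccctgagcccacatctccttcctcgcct
Each of the 6 holds TGTGGT, *Gzmb* in 2 places, and TGANTCA occurs in *Gzmb* alone. The *Gzmd* and *Gzme* stretches are 95.3% identical, *Gzmc* and *Gzmd* 87.3%, and *Gzmb* and *Gzmd* 48.0%. In these upstream bases *Gzmc* thus resembles *Gzmd* more than it resembles *Gzmb*.

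Start-site sequences of 300 bases were found for 33 of the 45 members, in 39 windows, and not for *Cd4*, *Cd8b1*, *Cd2*, *Cd6*, *Cd28*, *Icos*, *Thy1*, *Skap1*, *Klrd1*, *Klrg1*, *Sh2d1a* and *Sh2d2a*. The motifs were chosen after the values were seen and searched on both strands. TGTGGT occurred in 19 of the 39 windows (48.7%) against 16.8% of all 32851 windows, in 18 members that include *Prf1*, *Ncr1*, *Lck*, *Zap70*, *Lat* and *Gzma*, and the 6 granzymes shown above, whose sequences are related. The FOXO motif GTAAACA occurred in 1 window (2.56%), that of *Ltb*, against 3.65% of all windows. TGANTCA occurred in 5.13% against 7.81%, the T-box motif GGTGTGA in 7.69% against 3.98% and the STAT motif TTCNNNGAA in 12.8% against 8.30%. A match describes the letters of a window and says nothing of binding.

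Genes that work beside the members were followed in 7 companion lists. Of 20 further genes of T cell receptor signalling, 7 were at least 1.5-fold higher and none lower, against 5.43% and 3.51% of all genes, or 16.1% and 9.98% at 10 to under 100 counts, with a median log2 ratio of 0.50. The same shares apply to the other lists below. *Sit1*, a transmembrane adaptor of lymphocytes, averaged 9 and 39.3 counts, a fold of 4.19 (2.77 to 6.34). *Themis*, a regulator of thymocyte selection, averaged 4.67 and 19, a fold of 3.90 (2.19 to 6.95). The costimulatory receptor *Cd226* had a fold of 1.91, the exchange factor *Rasgrp1* 1.80, *Tespa1* 1.81, the adaptor *Grap2* 1.68 and the phosphatase *Ptpn22* 1.51. *Plcg1*, a phospholipase found in most tissues, held 37.5% of the counts of the list in *Foxo1f/f* and had a fold of 0.829 (0.812 to 0.847). Scaled to the total, the summed companion lists had folds from 0.971 to 1.20, and all 7 were below 1, from 0.725 to 0.895, relative to the pan-leukocyte sum.

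T cell factors and homing receptors included 7 genes at least 1.5-fold higher and 1 lower among 17 of 18 with enough counts, and their median log2 ratio was 0.49. *Ccr7*, the chemokine receptor of naive and central memory T cells, averaged 7.33 and 22.7, a fold of 2.96 (1.84 to 4.77). *Il7r*, the survival receptor of resting T cells, averaged 64 and 148, a fold of 2.22 (1.88 to 2.63). *Bcl11b*, a factor of T cell commitment, had a fold of 2.31, *Cxcr6*, a receptor of tissue-resident lymphocytes, 2.42, *Cxcr3* 1.67 and *Ikzf3* 1.51. *Klf2*, a factor of quiescent T cells that endothelium also expresses, was lower, with mean counts of 1271 and 846 and a fold of 0.638 (0.607 to 0.671). *Foxp3*, the factor of regulatory T cells, had mean counts of 14.3 and 16 and an interval that holds 1.

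All 11 effector genes with enough counts had log2 ratios above 0, as did 13 of the 16 in the cytokine list below. *Ifng*, the interferon of T and NK cells, averaged 9 and 38.7 counts, a fold of 4.12 (2.72 to 6.24). *Tnf* had a fold of 2.16 (1.70 to 2.73) and the chemokine *Ccl5* 1.97 (1.67 to 2.32), so that 3 of 11 effector genes with enough counts were at least 1.5-fold higher and none lower, with *Ifng* and *Tnf* in the range of counts where 16.1% of all genes were higher, and with a median log2 ratio of 0.27. Of 16 genes of the IL-2, IL-15 and IL-18 axis, whose median was 0.23, the receptor chains *Il18rap* (2.28), *Il18r1* (2.26) and *Il12rb1* (1.63) were higher. *Zbtb16*, a factor of innate-like lymphocytes that stroma also expresses, was lower, with mean counts of 4549 and 2924, a fold of 0.616 (0.600 to 0.633). *Il15*, which NK cells need for survival, had a fold of 1.19 (1.11 to 1.29), while *Il15ra*, which presents it, and *Nfil3*, a factor of NK cell development, were lower at 0.772 (0.732 to 0.815) and 0.739 (0.713 to 0.767).

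Further NK cell receptors and adaptors numbered 23, of which 18 had enough counts. The 6 at least 1.5-fold higher were *Klra2* (2.00), *Klrc1* (1.99), *Klri1* (1.85), *Klra9* (1.74), *Klrb1f* (1.58) and *Klra7* (1.53), and none was lower, with a median log2 ratio of 0.29. Many of these are members of multigene families with few counts. *Tyrobp*, the DAP12 adaptor, had a fold of 1.16 (1.11 to 1.22). Of 7 inhibitory receptors, whose median was 0.33, *Cd160* was higher at 1.67 (1.34 to 2.09), while *Tigit* and *Lag3* had folds of 0.705 (0.575 to 0.863) and 0.762 (0.679 to 0.855). In the list of T cell receptor constant and gamma delta genes, *Sox13*, *Cd163l1* and *Blk* had folds of 0.979, 1.14 and 1.47. Their median log2 ratio was 0.18. The constant region genes looked for, such as *Trac* and *Trbc1*, were not found by name among the genes counted, so they could not be analysed.

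**Figure D5:**
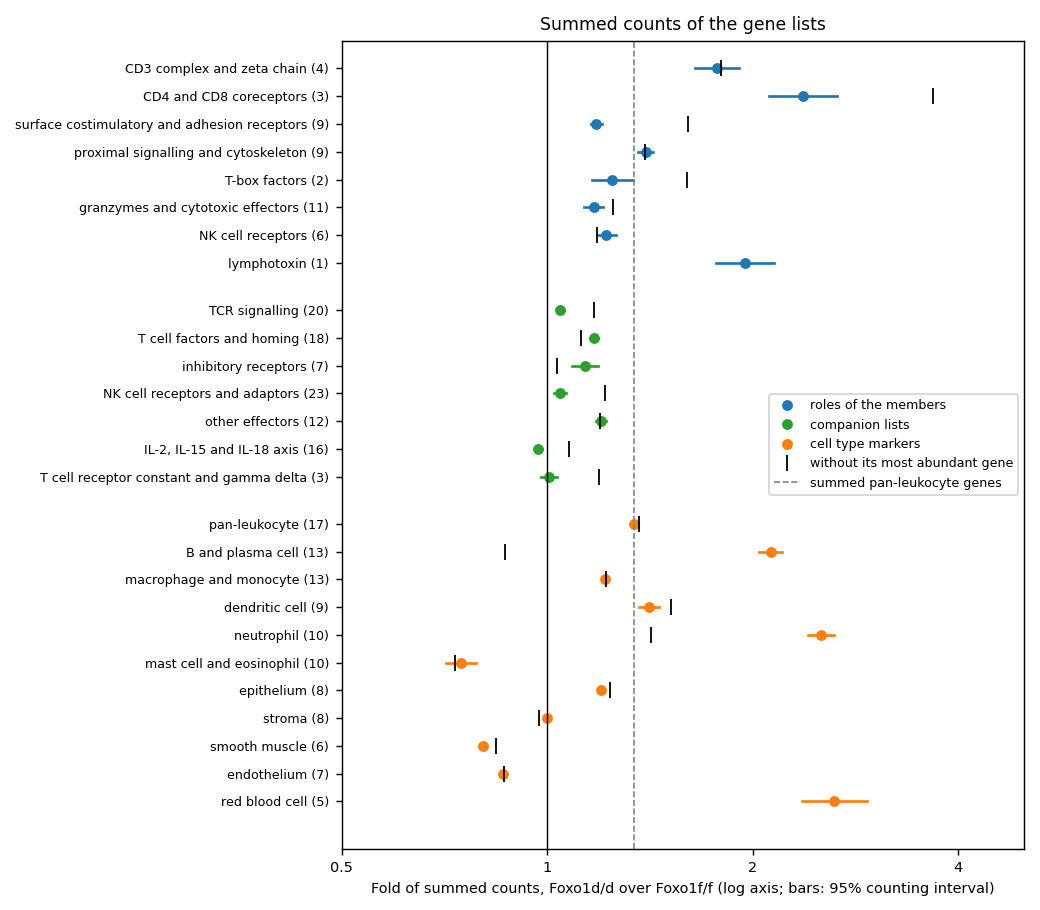
Fold of the summed counts of each list, *Foxo1d/d* over *Foxo1f/f* (log x axis), with 95% counting intervals, the number of its genes in the table in brackets, and a black tick for the value without the gene with the most counts. The dashed line is the pan-leukocyte fold of 1.34, and the coreceptors stand at 2.37 and the NK cell receptors at 1.22.

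Markers of other cells differed between genotypes as well, and their part in the members' values was not tested. The 13 macrophage and monocyte genes found all had log2 ratios above 0, from 0.13 for *Cd68* to 0.54 for *Cd14*, and they summed to 951 CPM in controls and 1157 in *Foxo1d/d*, with *Lyz2* holding the most counts, a fold of 1.22 (1.20 to 1.23). The 9 dendritic cell genes summed to 69.3 and 97.7 CPM, a fold of 1.41 (1.36 to 1.46), with *Zbtb46* holding the most counts. Their genes at least 1.5-fold higher were *Siglech* (3.00), *Ccl22* (2.77), *Flt3* (1.81), *Itgae* (1.58), *Xcr1* (1.53) and *Batf3* (1.52). *Itgae* is also carried by resident CD8 T cells.

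B and plasma cell genes differed by gene. *Igj*, the immunoglobulin J chain, averaged 470.3 and 2092 counts, a fold of 4.26 (4.02 to 4.52). *Fcrla* (3.87), *Pou2af1* (3.66) and *Cd79b* (1.72) were also at least 1.5-fold higher, and *Blnk* was lower at 0.596 (0.552 to 0.643). The 13 genes found summed to 48.6 and 103 CPM, a fold of 2.13 (2.05 to 2.21), and to 0.869 without *Igj*. *Blnk*, with mean counts of 578 and 359, held the most counts of that remainder. Of the 11 genes with enough counts, 9 had log2 ratios above 0 and 2 below, with a median of 0.45. Of the neutrophil genes, *Ltf* (3.23), which uterine epithelium also makes, *S100a9* (2.38) and *Mpo* (1.90) were higher, while *Ngp* and *Elane* stood at 0 in controls and 1 in *Foxo1d/d*. The 10 neutrophil genes found summed to 35.2 and 88.7 CPM, a fold of 2.52 (2.41 to 2.63), and 1.42 without *Ltf*.

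Mast cell and eosinophil genes were lower as a sum, the 10 found having 43.9 and 32.9 CPM, a fold of 0.749 (0.712 to 0.787). Of the 9 with enough counts, 7 had log2 ratios below 0 and 2 above, while 55.1% of all genes of that depth were above 0. *Cpa3* held the most counts, and *Fcer1a* (0.424) and *Prg2* (0.610) were at least 1.5-fold lower, while *Siglec5* (1.19) and *Ccr3* (1.18) had folds above 1 with intervals that hold 1. Of the structural lists, the 8 epithelial genes had 731 and 876 CPM, a fold of 1.20 (1.19 to 1.21), with *Krt19* at 2.33 and *Cdh1* holding the most counts. The 8 stromal genes had 9784 and 9769 CPM, a fold of 0.999 (0.995 to 1.00), between *Pdgfra* at a log2 ratio of -0.26 and *Col1a1* at 0.11, with *Col1a2* holding the most counts. The 6 smooth muscle genes had 6561 and 5287 CPM, a fold of 0.806 (0.803 to 0.809), from *Myh11*, which held the most counts, at -0.43 to *Acta2* at -0.15. The 7 endothelial genes had 1394 and 1203 CPM, a fold of 0.863 (0.855 to 0.870), from *Emcn* at -0.24 to *Erg* at -0.14, with *Pecam1* holding the most counts. Of the red blood cell genes, *Alas2* averaged 147 and 403, a fold of 2.63 (2.36 to 2.94), while the 4 globin genes found, *Hba-a1*, *Hba-a2*, *Hbb-b1* and *Hbb-b2*, were listed at 0.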

How the data were processed

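Uterine poly(A) RNA of 3 libraries per genotype was sequenced as paired-end reads, which the authors trimmed to 90 bases. Per the paper they mapped them to mm10, while the submitters' processing notes name mm9. The tools were STAR, Picard for removal of duplicates, HTSeq and RefSeq genes, with no versions given in the sources used here. The deposited table holds for every gene and genotype the mean of raw counts that the authors took over libraries, and these were the values used. Its other columns hold the authors' own EdgeR comparison (fold change, mean log2 CPM, p-value and FDR) and were not used.

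Each mean count plus a pseudocount of 1 was divided by its genotype's total for the log2 ratio, and single-gene folds had no pseudocount. Counts summed over libraries gave 95% Wilson intervals. Genes averaging 10 or more counts across the genotypes were called at 1.5-fold on the ratio with pseudocount. No test across libraries was made here, as the values used are means. Intervals cover counting error only, since the means hold no spread between pools. Duplicate removal does not make reads independent molecules, so the intervals may be too narrow even for that. Exon lengths and transcripts came from GENCODE and start sites from RefSeq on GRCm38.p6. The members, their 8 roles, 7 companion lists and 11 marker lists were chosen with earlier results of these data known. Every member is named by value or range. Of the other lists, most genes at least 1.5-fold higher or lower are named, or else the one with the most counts and the extremes, and further genes named there were chosen after their values were seen. The alternatives were other folds, pseudocounts, count minimums and scalings, and lists without some members. The ratio and interval were tested on simulated counts with counting error only, so that test says nothing of spread between pools of mice. Python 3.11.15, pandas 2.3.3, numpy 2.4.6, SciPy 1.17.1, Biopython 1.88 and matplotlib 3.10.9 were used.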

Additional observations from a re-analysis of the deposited data

How the results depend on the processing

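Of 46 comparisons of a value with an alternative, 34 stayed within a set tolerance, 11 moved and 1 reversed. The tolerance was a factor of 1.5 for counts of members, the median half-width of the members' counting intervals for the median, and the value's own counting interval for summed ratios. It is wide for counts and narrow for summed ratios. The number of members at least 1.5-fold higher was 17, and it was 28 with the smaller alternative fold and 8 at 2-fold. With the pan-leukocyte sum as the scale, an alternative chosen after seeing the data, 8 members were higher and 5 lower, the median log2 ratio of members was 0.0283, and the ratio of summed member counts was 0.949 instead of 1.27. The ratio of summed counts was 1.25003 with scaling by the median gene and 1.34 without *Thy1*. Without the member with the most counts, the summed ratio was 3.67 for the coreceptors, 1.61 for the surface receptors, 1.60 for the T-box factors and 1.251 for the granzymes and effectors. The cause of these shifts was not tested. The other pseudocounts and count minimums and the counting interval kept the number of members higher between 13 and 19 and lower at 2 or 3. Without the 11 members also known outside T and NK cells, 12 of 32 were higher.

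No paired analysis was possible because, although the labels share replicate numbers, the table gives means per genotype and no counts of single libraries. For the same reason the planned replicate block and the fits without each replicate were not run. Differences between pools of mice were not judged here, since the authors' test columns were not used. Low counts limit *Trat1*, *Gzmk*, *Ctla4* and *Gzmg* most.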
